A study of Mus musculus with 12 samples.

Results

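The primitive streak transcription factors examined here are a set of 10 mouse genes, Tbxt, Mixl1, Eomes, Gsc, Evx1, Lhx1, Mesp1, Cdx1, Cdx2 and Sp5, taken as every probe set annotated to exactly 1 gene of that list. The annotation used assigned 12 probe sets to 9 of the 10 genes, of 18193 genes named on the arrays in all, out of 22626 probe sets tested on chip A, the first array of the Affymetrix mouse 430 pair. It assigned none of the 22511 on chip B, the second array, to any of them. Tbxt, also called brachyury, had no probe set under that name and was not analysed here. The tested samples were embryoid bodies (EBs), cell aggregates in which embryonic stem (ES) cells begin to differentiate, made from the J1 mouse line and kept for 5 days in bacterial Petri dishes. Their medium was D-MEM with 10% serum, without leukemia inhibitory factor, β-mercaptoethanol or sodium pyruvate. They were set against J1 ES cells grown for 2 days on gelatin in the same base medium and serum with those 3 additions. Each culture had 3 replicates, and each replicate was hybridized to both chips. All samples came from 1 cell line. No label says that the replicates were separate cultures, so every p-value rests on the scatter among these samples alone, and that scatter may be technical. For the ES cells the labels list DR4 feeders as contaminating cells and a purity of 95%, judged by eye, while the EBs carry no such entry.

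The primitive streak is the region of the gastrulating mouse embryo through which epiblast cells pass to become mesoderm and definitive endoderm. Nodal, WNT and BMP signals induce it, and a first layer of transcription factors then directs cells to posterior mesoderm, to cardiac mesoderm or to the anterior streak and organizer. In EBs kept in serum the same factors can appear without an embryonic axis, and in bulk RNA fewer cells of a type and less RNA per cell cannot be told apart.

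In EBs after 5 days, 5 of the 12 probe sets were higher, 0 were lower and 7 did not pass the test, which was limma on log2(signal + pseudocount) with Benjamini-Hochberg adjustment over the chip and a threshold of 0.05. The 5 probe sets belonged to 5 genes, Eomes, Mixl1, Evx1, Lhx1 and Sp5, and changed by 3.38-fold to 5.26-fold. Among all probe sets of chip A, 3.39% were higher by the same rule and 2.91% were lower. The EB signals lay above all ES signals for 8 of the 12, against 13.1% of all probe sets of the chip. The median log2 change was 1.37 over the 12 and -0.05 over the chip. Gsc, the other Eomes probe set and Cdx2 on 1422074_at had EB signals above every ES signal without passing the test. On that Cdx2 probe set every signal was below the pseudocount. Mesp1, Cdx1 and the other probe sets of Lhx1 and Cdx2 did not pass either. Since the pseudocount of 137 signal units is the 20th percentile of the chip, these fold changes understate the change of low signals. Their log2 sizes, 1.76 to 2.39, became 2.01 to 4.07 with a pseudocount of 1 and 1.05 to 1.71 with the chip median as pseudocount, and Lhx1 (1450428_at) moved most, to 4.07 and 1.12.

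**Figure D1:**
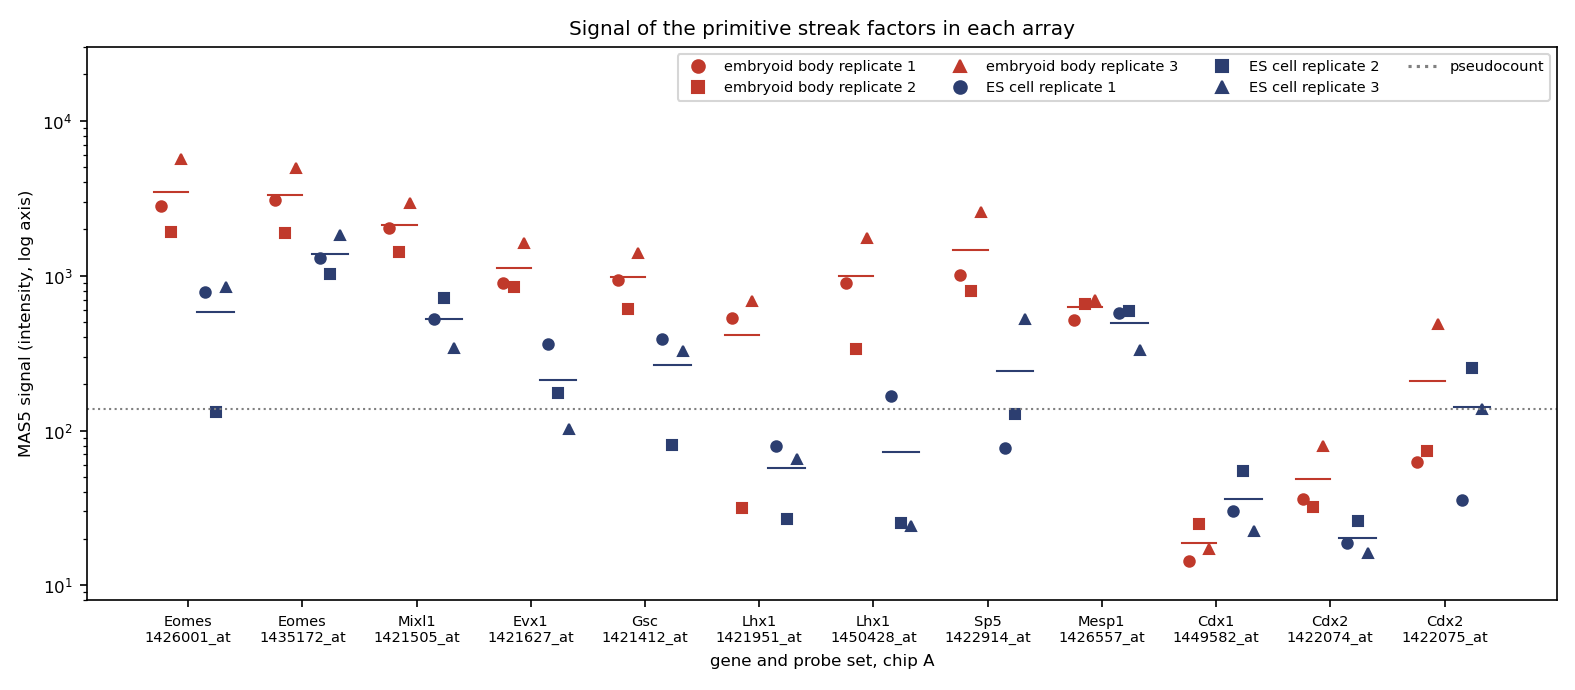
Signal of each of the 12 probe sets (MAS5 intensity, log axis) in the 3 EB arrays (red, left) and the 3 ES arrays (blue, right), with the group means as bars and the pseudocount of 137 as a dotted line. EB and ES arrays separate for both Eomes probe sets, Mixl1, Evx1, Gsc, Sp5 and 1 probe set each of Lhx1 and Cdx2, and all arrays lie below the dotted line for Cdx1 and for Cdx2 on 1422074_at.

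Promoter sequence was taken from RefSeq (build GRCm38.p6) and was listed for 7 of the 9 measured genes. The 250 bases before the start of transcription were searched on both strands for CTTTGAT, the core of the site bound by TCF and LEF, the DNA-binding partners of β-catenin in WNT signalling. Further motifs were TCACACC for T-box factors, AATNCACA for FOXH1, the DNA-binding partner of SMADs in Nodal signalling, and TAATCC for homeodomains of the bicoid class, to which Gsc belongs. CTTTGAT was found in 2 of the 7 windows, those of Sp5 and Mesp1, and in 3.21% of the 32536 windows of all listed promoters. The other motifs were found in none of the 7, against 3.33%, 3.19% and 6.25% of all windows in the order given. These are matches of letters in a short window and show no binding. The windows of Sp5 and Mesp1 are shown because they hold the match and differed in outcome, and that of Eomes because it was called and holds none of the motifs. Each reads 5′ to 3′ on the gene's strand up to the base before the start listed with the promoter, with the match in capitals. For Eomes that start lies just inside the gene as listed, which begins at 118478186.
Sp5, chr2:70474673-70474922, plus strand: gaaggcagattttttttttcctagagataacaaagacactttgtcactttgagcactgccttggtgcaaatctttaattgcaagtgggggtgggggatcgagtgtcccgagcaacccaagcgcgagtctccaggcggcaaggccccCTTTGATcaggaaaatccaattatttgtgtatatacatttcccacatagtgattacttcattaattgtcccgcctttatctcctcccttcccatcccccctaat
Mesp1, chr7:79793591-79793840, minus strand: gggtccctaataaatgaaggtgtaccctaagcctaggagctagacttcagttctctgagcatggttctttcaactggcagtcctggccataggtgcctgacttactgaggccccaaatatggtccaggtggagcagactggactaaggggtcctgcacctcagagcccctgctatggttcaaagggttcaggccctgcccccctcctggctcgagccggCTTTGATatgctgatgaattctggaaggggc
Eomes, chr9:118477939-118478188, plus strand: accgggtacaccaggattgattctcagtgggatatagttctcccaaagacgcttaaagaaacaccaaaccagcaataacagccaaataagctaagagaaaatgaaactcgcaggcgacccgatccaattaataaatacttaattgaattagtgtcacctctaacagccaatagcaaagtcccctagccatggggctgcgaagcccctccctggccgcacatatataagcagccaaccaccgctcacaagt
The match began 104 bases before the start in Sp5 and 31 bases before it in Mesp1.

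Eomes encodes a T-box factor that mouse embryos need for mesoderm to leave the streak and for definitive endoderm to form. Its probe set 1426001_at gave signals of 2832, 1915 and 5674 in EB replicates 1, 2 and 3, against 787, 133 and 839 in ES replicates 1, 2 and 3. All EB arrays were above all ES arrays, and ES replicate 2 was the low one. The log2 change was 2.39 ± 0.51 (SE), or 5.26-fold, with an adjusted p of 0.0260. The other probe set, 1435172_at, gave 3093, 1893 and 4939 in EBs, against 1298, 1019.7 and 1823 in ES cells. Here the lowest EB array was only 1.04 times the highest ES array, and the log2 change of 1.12 (95% interval from 0.40 to 1.84) did not pass (adjusted p = 0.0717). Both probe sets of Eomes gave EB replicate 3 the highest signal and EB replicate 2 the lowest, and among ES cells both gave replicate 2 the lowest.

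Mixl1 encodes a paired-type homeobox factor of the streak and the nascent mesendoderm. It had signals of 2038, 1414 and 2962 in EB replicates, against 528, 714 and 342 in ES replicates. The groups did not overlap, and the mean was 2138 ± 779 in EBs and 528 ± 186 in ES cells (SD, n = 3 each). Mixl1 rose by 1.76 ± 0.31 (SE) on the log2 scale, or 3.38-fold, with an adjusted p of 0.0123, the lowest of the 12. Among EB arrays its highest signal was 2.10 times its lowest.

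Evx1, an even-skipped homeobox gene of the posterior streak, had signals of 895, 845 and 1637 in EBs, against 360.0, 175 and 102 in ES cells. EB replicates 1 and 2 were close to each other, and the lowest EB array was 2.35 times the highest ES array. Evx1 rose 3.65-fold, a log2 change of 1.87 with a 95% interval from 1.04 to 2.69 (adjusted p = 0.0188).

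Gsc and Lhx1 act at the anterior end of the streak, where Gsc is a homeobox repressor of the organizer and Lhx1 a LIM homeobox factor needed for the mouse head to form. Gsc had signals of 931, 609 and 1404 in EBs, against 393, 80.5 and 326 in ES cells. Every EB array was above every ES array, but the log2 change of 1.51 (95% interval from 0.59 to 2.43) had an adjusted p of 0.0615 and did not pass. Lhx1 was measured by a pair of probe sets that gave different calls. Probe set 1450428_at gave 892, 336 and 1742 in EBs, against 167, 25.4 and 24.1 in ES cells, of which 2 lay below the pseudocount. It rose 4.86-fold (log2 change 2.28 ± 0.50, SE, adjusted p = 0.0270). Probe set 1421951_at gave 532, 31.4 and 685 in EBs, against 78.8, 27.0 and 65.5 in ES cells. EB replicate 2 fell within the ES range on that probe set, the log2 change was 1.23 (95% interval from 0.07 to 2.39), and the adjusted p was 0.200. Of the 6 fits with 1 array left out, only that without EB replicate 2 called this Lhx1 probe set. Its log2 change there was 1.94 (adjusted p = 0.0212), while in the other fits the adjusted p reached 0.453. EB replicate 2 and all 3 ES arrays were below the pseudocount on this probe set.

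Sp5 encodes a zinc finger factor that WNT signalling induces in the streak. Its signals were 1005, 794 and 2584 in EBs, against 77.5, 128 and 526 in ES cells. The lowest EB array was 1.51 times the highest ES array, ES replicate 3, which stood apart from the other ES arrays. Sp5 rose 4.25-fold, with a log2 change of 2.09 ± 0.51 (SE) and an adjusted p of 0.0423. In ES cells the highest array was 6.79 times the lowest, close to the 6.94 of Lhx1 on probe set 1450428_at. For either probe set 2 of the ES signals lay below the pseudocount, so these ratios rest on low signals. With the chip median as pseudocount, Sp5 did not pass (adjusted p = 0.0640).

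Mesp1 encodes a basic helix-loop-helix factor of the first mesoderm to leave the streak, including heart precursors. Its signals of 519.7, 661 and 695 in EBs overlapped those of 575, 588 and 329.8 in ES cells. The log2 change was 0.28 with a 95% interval from -0.36 to 0.93 (adjusted p = 0.620). With 3 arrays per group, a rise or a fall of a size within that interval remains possible.

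Cdx1 and Cdx2 are caudal homeobox genes that pattern the posterior body axis, and Cdx2 is also a factor of the trophectoderm, the outer layer of the blastocyst. Cdx1 had signals of 14.4, 24.8 and 17.2 in EBs, against 30.1, 55.1 and 22.4 in ES cells. All 6 were below the pseudocount, and the log2 change was -0.15 (95% interval from -0.47 to 0.18, adjusted p = 0.608). Cdx2 on probe set 1422074_at was also below the pseudocount in every array, at 36.2, 31.8 and 78.8 in EBs, against 18.7, 26.2 and 16.1 in ES cells. Its groups did not overlap, yet at such signals the log2 change was 0.23 (adjusted p = 0.432). On probe set 1422075_at Cdx2 had 63.0, 74.2 and 488 in EBs, against 35.6, 252 and 138 in ES cells. EB replicate 3 alone was above the ES range there, with an adjusted p of 0.871. No detection calls were used, so a signal this low cannot be called absent. The trophoblast markers read as a check beside Cdx2 (Hand1, Tfap2c, Elf5, Krt7, Gata3, Ascl2 and Plac1) had 0 of 7 higher and 0 of 7 lower, and their summed signal ran from 2337 to 3139 in EBs and from 3859 to 4445 in ES cells.

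**Figure D2:**
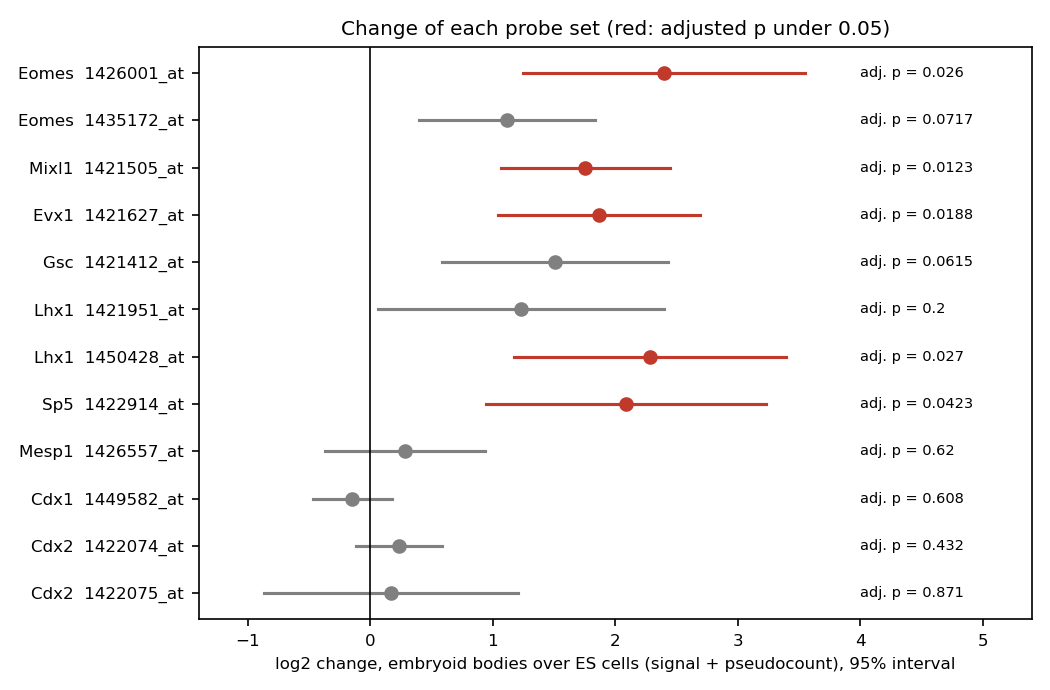
Log2 change of each of the 12 probe sets in EBs over ES cells on the log2(signal + 137) scale, with 95% intervals of the limma fit and the adjusted p at the right. The 5 probe sets in red passed the threshold of 0.05, and the intervals of Mesp1, Cdx1 and both Cdx2 probe sets include 0.

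The factors tended to be high and low in the same EB replicates. EB replicate 3 was the highest EB array for 11 of the 12 probe sets, against 34.7% of all probe sets of chip A and 36.8% of the 767 that were higher in EBs. The full order, replicate 3 above replicate 1 above replicate 2, held for 9 of the 12, or 75%, against 16.1% of all probe sets and 21.6% of those higher in EBs. The order was noticed after the values were seen and carries no test, and all 12 probe sets share the same arrays. Replicate 3 exceeded replicate 2 by 2.96 times for Eomes (1426001_at), 3.26 times for Sp5, 5.18 times for Lhx1 (1450428_at) and 1.94 times for Evx1. Against the ES mean, EB replicate 2 was 1.72 higher on the log2 scale for that Eomes probe set and EB replicate 3 was 3.22 higher. The median signal of the 6 arrays, 589 to 681, did not follow this order, with 608.5 in EB replicate 3 and 619 in EB replicate 2. These medians were read after the chip A trimmed means had been evened out, to near 1500.5. They therefore say little about array brightness before that step, and whether brightness had a part in the order was not tested. The 3 EB arrays were scanned on 3 different days, and EB replicate 1 was washed at another fluidics station than the others. The part of these in the order was not tested. The neural progenitor markers (Sox1, Pax6, Nes, Zic1 and Sox11) had their highest summed signal on chip A in EB replicate 3, at 15907. The sum was 8359.8 and 9388 in EB replicates 1 and 2, and 3366 to 4625 in ES cells, with 3 of 5 higher and 0 lower in EBs. Of these markers only Zic1 and Sox11 were highest in EB replicate 3, at 6324 and 5596. Sox1 and Nes were highest in EB replicate 2, and Pax6 was lowest in EB replicate 3, at 811. The part of these markers in the order was not tested.

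**Figure D3:**
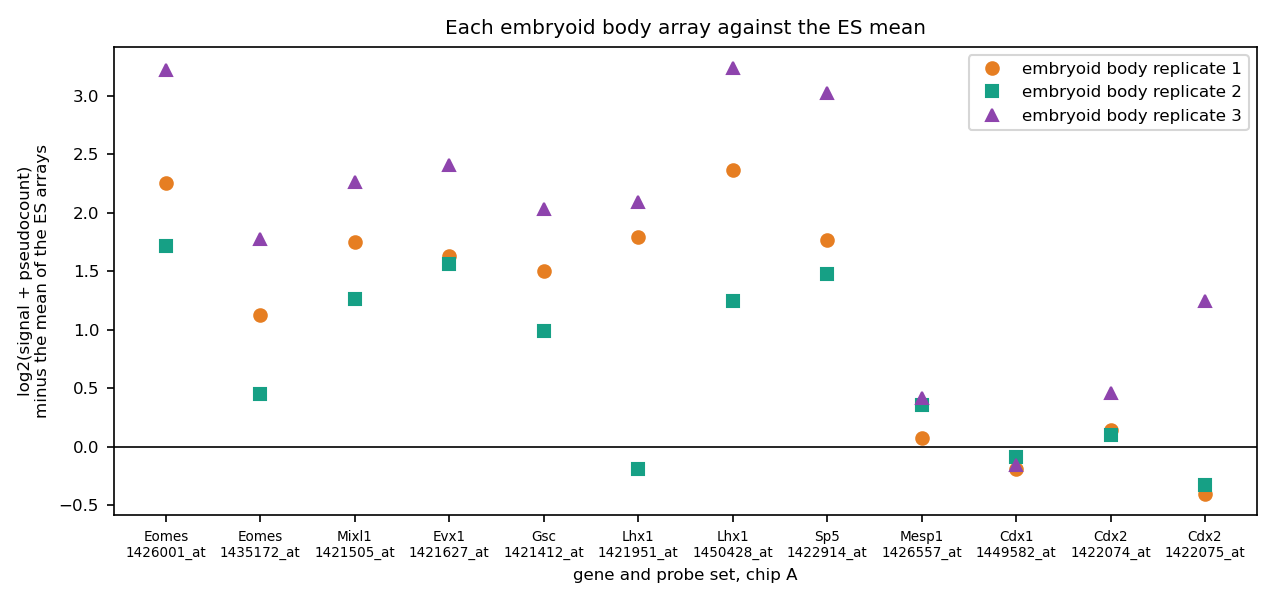
Each EB array against the mean of the 3 ES arrays, as a difference of log2(signal + 137), for the 12 probe sets. EB replicate 3 (triangles) is the highest point for 11 of the 12, and EB replicate 2 (squares) is below 0 for Lhx1 on 1421951_at, for Cdx1 and for Cdx2 on 1422075_at.

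Each of the 5 calls was lost in some fit with 1 array left out. Of the member probe sets, 6 passed without EB replicate 2 and 5 without ES replicate 3. The count was 2 without ES replicate 1, 2 without ES replicate 2, and 0 without EB replicate 1 or EB replicate 3. Over all of chip A, 1425 probe sets passed with every array kept. That number was 434, 625 and 644 without EB replicates 1, 2 and 3, and 466, 874 and 2092 without ES replicates 1, 2 and 3. Thus calls fell over the chip too, except without ES replicate 3. Without EB replicate 2 the member count rose while that of the chip fell. The sizes of the 5 member changes moved less than their calls. Leaving out each array in turn, the log2 change ran from 1.79 to 2.73 for Eomes (1426001_at), from 1.50 to 2.00 for Mixl1 and from 1.59 to 2.15 for Evx1. It ran from 1.81 to 2.80 for Lhx1 (1450428_at) and from 1.62 to 2.58 for Sp5. The highest adjusted p was 0.0917 for Eomes, 0.0582 for Mixl1, 0.0705 for Evx1, 0.0928 for Lhx1 and 0.139 for Sp5.

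**Figure D4:**
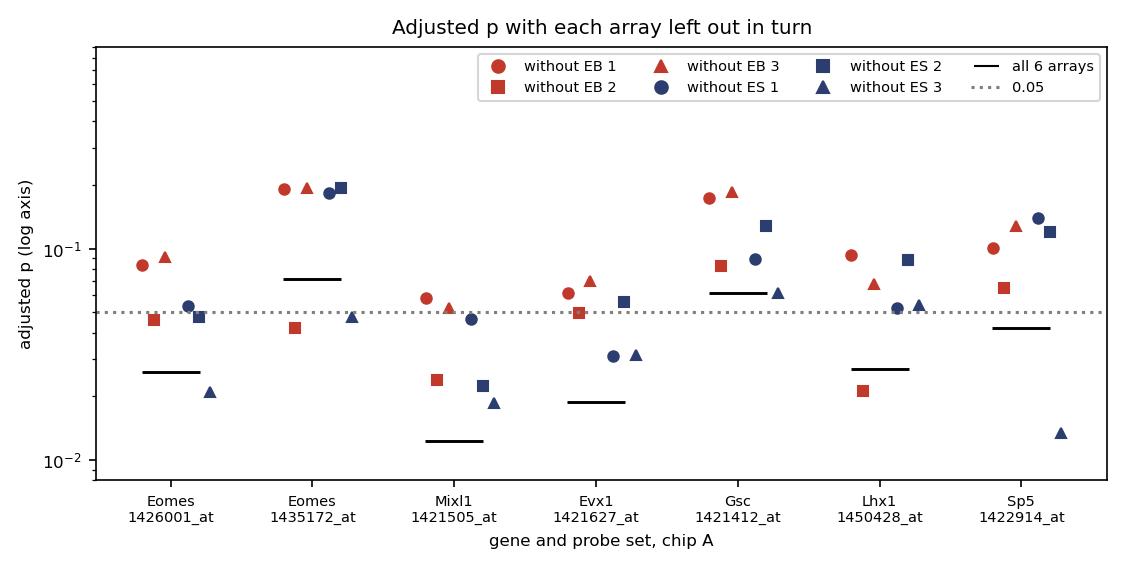
Adjusted p (log axis) of the 7 probe sets with the lowest values, with all 6 arrays (black bar) and with each array left out in turn (red, an EB array; blue, an ES array); the dotted line is 0.05. Without EB replicate 1 (red circles) or EB replicate 3 (red triangles) every one of the 7 lies above the line.

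Chip A arrays had been washed at several fluidics positions, 2 of which held an array of each group. Between the arrays of a shared position, EB replicate 2 minus ES replicate 1 and EB replicate 3 minus ES replicate 2, the log2 differences were 1.15 and 4.43 for Eomes (1426001_at) and 1.22 and 1.86 for Mixl1. They were 0.98 and 2.51 for Evx1, 0.64 and 3.53 for Lhx1 (1450428_at) and 2.12 and 3.36 for Sp5. Both were positive for all 5. With the position as a block, 3 of the 12 probe sets passed, those of Eomes (1426001_at), Mixl1 and Sp5. The estimate of that fit rests on the 4 arrays of the shared positions alone. So few arrays leave each probe set little scatter of its own, and the calls lean on the variance borrowed across the chip.

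The label of the cultures was checked on factors outside the set. Pou5f1, the core factor of pluripotency, had 7688 ± 236 in EBs and 14603 ± 1879.9 in ES cells and fell (adjusted p = 0.00783), and Zfp42, a marker of naive cells, fell 3.36-fold (adjusted p = 0.0298, up to 0.114 when any array but ES replicate 3 was left out). Nanog and Sox2 did not pass, with log2 changes of -0.16 (95% interval from -0.47 to 0.16) and -0.07 (from -0.53 to 0.40). Feeder fibroblast markers went the other way from the streak factors. Of 10 measured, 4 fell and 0 rose, their summed signal was 4711 to 6089.8 in EBs and 16661 to 28582 in ES cells, and Col1a1, a fibroblast collagen, had 48.6 ± 20.2 in EBs and 4923 ± 1554 in ES cells. The part of feeder RNA in the ES values of the streak factors was not tested. Of 8 visceral and parietal endoderm markers on chip A, 0 rose and 0 fell. Visceral endoderm can itself express Eomes, Gsc and Lhx1, and its part in their signals was not tested. Ttr had 60.9 ± 12.5 in EBs and 50.0 ± 6.26 in ES cells on that chip and Apoa1 51.9 ± 41.2 in EBs and 47.9 ± 15.5 in ES cells, all below the pseudocount. On chip B another Dab2 probe set rose 4.15-fold (adjusted p = 0.0109), and a Ttr probe set, with every EB array above every ES array and a log2 change of 1.24 (95% interval from 0.35 to 2.13), did not pass (adjusted p = 0.0739).

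Signals and regulators around the streak factors were read from a list of 46 genes by role, each represented by 1 probe set on a chip. On chip A, of 44 genes 5 rose, 5 fell and 34 did not pass, against 3.39% of all its probe sets higher and 2.91% lower. Their median log2 change was -0.05, the same as that of the chip. On chip B, of 12 genes 2 rose, 3 fell and 7 did not pass, against 5.78% of all its probe sets higher and 4.91% lower.

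The ligands that induce the streak were lower or did not pass. Nodal, which starts the program, had 1574, 2799 and 3666 in EBs, against 5238, 5503 and 6978 in ES cells (probe set 1422058_at). It fell 2.24-fold (adjusted p = 0.0330), a call that survived only the removal of EB replicate 3 and otherwise reached as much as 0.0837. The other Nodal probe set fell as well (1422057_at, 974, 1781 and 2219 in EBs, against 3216, 3161 and 3523 in ES cells), with an adjusted p of 0.0484 that held in 1 of the 6 fits with an array left out and reached 0.133. Gdf3, a related ligand, fell 6.85-fold (adjusted p = 2.32e-04) and 8.76-fold on chip B (adjusted p = 0.00131), and Fgf4, which ES cells secrete, fell 7.75-fold (adjusted p = 3.95e-04). Bmp4, with a log2 change of -0.60, was not called, nor was any of Wnt3, Wnt3a and Wnt8a. Wnt3 had 223, 7.53 and 13.5 in EBs, against 14.1, 101 and 92.1 in ES cells. Every array but EB replicate 1 was below the pseudocount, so its signals say little about a change. Fgf8, a growth factor of the streak, gave 809.8, 760.2 and 2627 in EBs, against 57.9, 490.5 and 1319 in ES cells, and did not pass (adjusted p = 0.330).

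Among receptors and transducers on chip A, of 14 genes 1 rose, 1 fell and 12 did not pass. Tdgf1, the co-receptor of Nodal, fell 3.24-fold (adjusted p = 0.00783), and Acvr2b, a receptor of the activin family, fell 3.48-fold on chip B (adjusted p = 0.00384). On chip A an Acvr2b probe set had a log2 change of the opposite sign, 0.37, and did not pass (adjusted p = 0.353). Ctnnb1, which encodes β-catenin, rose 1.66-fold (adjusted p = 0.0186). Removing ES replicate 1 or any 1 EB array ended that call, with values as high as 0.0903, and the other Ctnnb1 probe sets on chip A were not called. Across all roles, the other genes with both called and uncalled probe sets on chip A were Fgf4, Smad4, the shared SMAD of Nodal and BMP signalling, Tcf7l1, a WNT repressor, Axin2, and Cer1, a Nodal inhibitor of the anterior endoderm. Cer1 rose 4.05-fold on 1450256_at (adjusted p = 0.0209), while 1450257_at, which stands for it in the counts, did not pass (adjusted p = 0.0875). Smad4 rose 2.50-fold on 1422487_at (adjusted p = 0.00702, kept in 6 of 6 fits with an array left out). On 1422486_a_at it rose 2.04-fold (adjusted p = 0.0128, kept in 3 of 6), while 1422485_at, which stands for Smad4 in the counts, did not pass. Tcf7l1 rose 1.81-fold on 1450117_at (adjusted p = 0.0482, kept in 1 of 6). Lef1 rose 2.26-fold on chip B (adjusted p = 0.0209, lost without EB replicate 3 or any ES replicate, up to 0.0587) and did not pass on chip A. Smad3 was the brightest uncalled gene of this role on chip B (log2 change 0.42), and on chip A it was Foxh1, at 3857 ± 778 in EBs and 4012 ± 581 in ES cells (SD, n = 3 each).

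Of 7 inhibitors on chip A, 2 rose, 1 fell and 4 did not pass, and of 2 on chip B, 1 fell and 1 did not pass. Lefty1 and Lefty2, secreted inhibitors of Nodal, fell 9.02-fold on chip A and 5.31-fold on chip B (adjusted p = 0.00366 and 0.00622). Dkk1 and Axin2, which restrain WNT signalling outside and inside the cell, rose 3.08-fold and 3.03-fold (adjusted p = 0.0112 and 0.0186). The Dkk1 call was lost without EB replicate 1 or 3 (up to 0.0524) and the Axin2 call without EB replicate 2 or 3 or ES replicate 1 or 2 (up to 0.0640). Axin2 had 1536, 2259.6 and 3773 in EBs, against 729, 509 and 874 in ES cells, with EB replicate 3 the highest as for Sp5. Skil, a repressor of SMADs, was not called (log2 change -0.14), and on chip B neither was another Dkk1 probe set (log2 change 1.19).

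Of 15 other transcription factors of the streak and its derivatives on chip A, 2 rose, 0 fell and 13 did not pass. Otx2, a factor of the anterior epiblast and endoderm, rose 2.35-fold (adjusted p = 0.0152), which became at most 0.0636 when EB replicate 1 or ES replicate 1 was removed. Foxa2, of the anterior streak and endoderm, rose 2.33-fold (adjusted p = 0.0198), a call that ended on removing EB replicate 1, EB replicate 3 or ES replicate 1 (at most 0.0781). Sp8, the close relative of Sp5, rose 3.70-fold on chip B, with 3169, 4472 and 3564 in EBs, against 949.6, 506 and 1085 in ES cells (adjusted p = 0.00612). EB replicate 2 was the highest for Sp8, unlike Sp5. Hand1 was the brightest uncalled gene of this role on chip A and Foxf1 on chip B, with log2 changes of -0.22 and 0.74, and the 13 uncalled genes on chip A had log2 changes from -0.67 for Msgn1, a factor of presomitic mesoderm, to 0.88 for Sox17, a factor of definitive endoderm. Sox17 had every EB array above every ES array (adjusted p = 0.117).

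**Figure D5:**
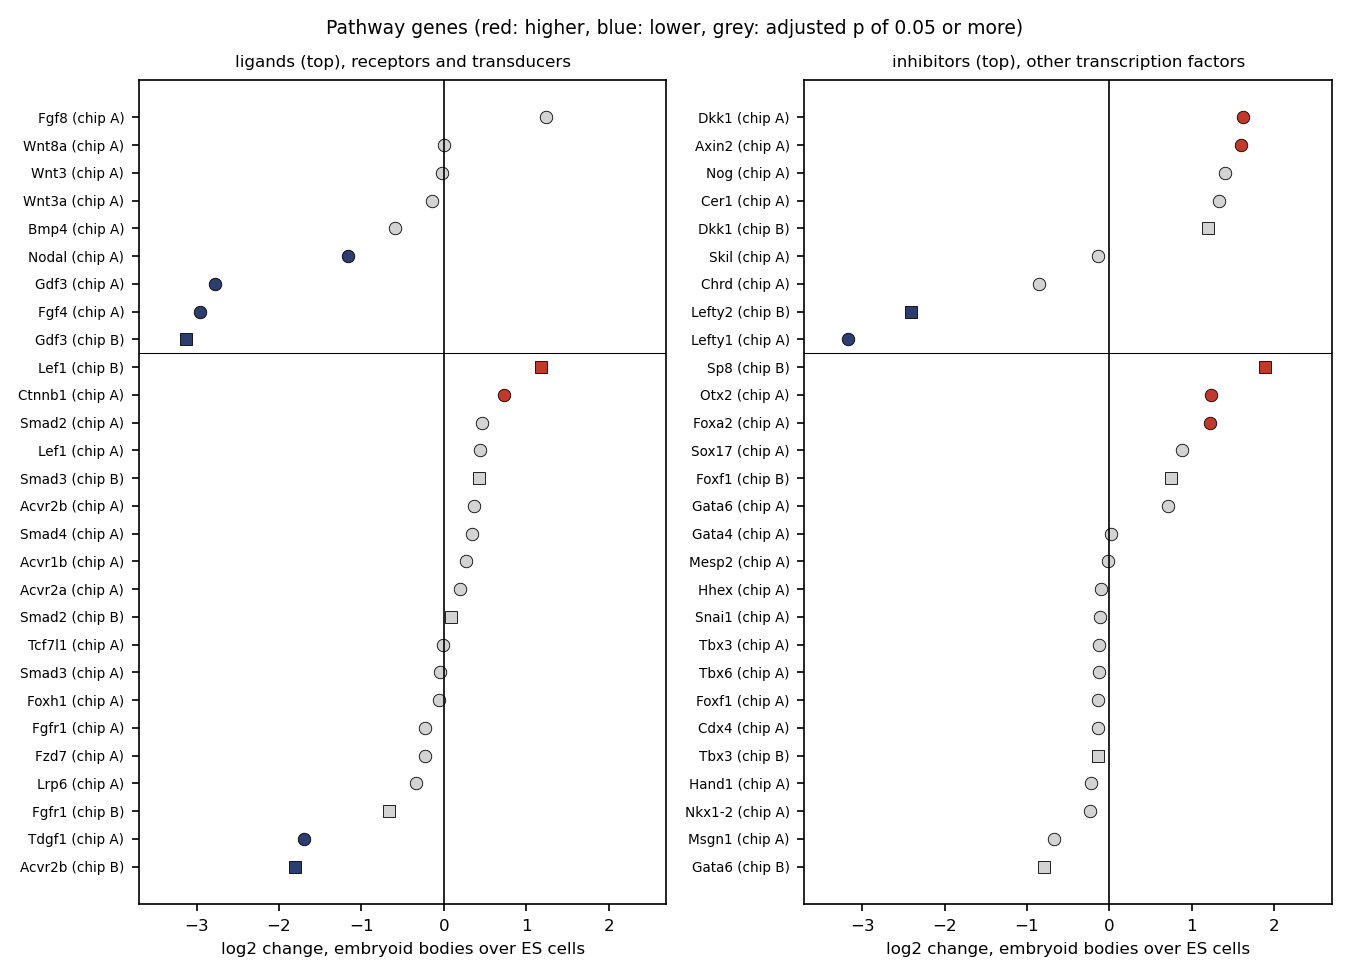
Log2 change in EBs over ES cells of the pathway genes by role, 1 probe set per gene and chip (circles, chip A; squares, chip B), with genes that rose in red and genes that fell in blue. Nodal, Gdf3, Fgf4, Tdgf1, Lefty1 and Lefty2 lie on the left, and Dkk1, Axin2, Lef1 and Sp8 are among those on the right.

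The profiles most like that of Eomes (1435172_at) over the 6 chip A arrays, among 10397 brighter named probe sets, were those of Igfbp4, Tmem147, Nrp1, Ndn and Hsd17b10. Their Pearson correlations ran from 0.983 to 0.990. Among the other members that correlation was 0.95 for Sp5, 0.93 for Gsc and 0.22 for Mesp1, and it was lowest for Cdx1, at -0.81, whose signals were all below the pseudocount. The 6 arrays come from 2 groups, so these values hold any difference between the groups and carry no p. Of the 5 named, only Ndn passed the test between the groups (2.18-fold higher, adjusted p = 0.0353).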

How the data were processed

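The deposited tables held 1 intensity per probe set and array on a linear scale, made by the authors with MAS5 per the submitters' processing notes; version and build are not given in the sources used here. Trimmed means near 1500.5 on chip A and 1500.1 on chip B show scaling to a common target, and no further normalization was applied. Precision is limited by having 3 arrays for each group on a chip. Further files held wash and scan settings, per the file headers, and gave the batches. Probe sets were named through the platform annotation (20380 of chip A and 14661 of chip B with 1 gene, 691 and 245 with several, 1555 and 7605 with none). On either chip 64 control probe sets were set aside.

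Each chip was fitted on its own with limma 3.58.1 in R 4.3.3 (lmFit, eBayes with an intensity trend) on log2(intensity + pseudocount), with the chip's 20th percentile as pseudocount (137 and 253), and Benjamini-Hochberg adjustment. The procedure was tested on simulated data. Intervals are 95% intervals of the fit. The members, lists and tests were chosen with earlier results of these data known. Every member probe set is reported. From the pathway list, the rule named up to 3 called genes with the largest changes per role and the brightest uncalled one. Other pathway and marker genes named, such as Fgf8, Sox17 and Dab2, were chosen after their values were seen. The likeness was meant for Tbxt, which has no named probe set, and used Eomes instead, a choice made after seeing the data. Alternatives were other scalings, pseudocounts, a filter, no trend, batch or replicate blocks and leaving out each array. Replicate numbers shared by both groups were not treated as pairs in the main fit. Whether they pair the samples is not settled by the values given below.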

Additional observations from a re-analysis of the deposited data

How the results depend on the processing

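Of 12 member probe sets 5 passed, as they did after quantile normalization, after median scaling and with a pseudocount of 1. The number was 3 with the chip median as pseudocount, 2 without the intensity trend, 3 with the fluidics position as a block, and 0 to 6 with 1 array left out. Leaving out dim probe sets gave 6, among them Gsc and Eomes (1435172_at). That filter removed every Lhx1, Cdx1 and Cdx2 probe set, so the Lhx1 call could not be kept. Scan day as a random block gave 7, but no scan day of chip A held both cultures, so that fit does not separate day from culture. All these calls were higher in EBs. Over chip A, 1425 probe sets passed, against 844 without the trend, 2243 with scan day as a random block and 434 to 2092 with 1 array left out. After median scaling 63.5% of the chip A calls were higher in EBs, against 53.8% as reported. Over chip B, 2407 passed, against 934 to 1806 with 1 array left out. On chip B each culture had 1 scan day, and there too day and culture cannot be told apart. Of the pathway genes, 10 passed on chip A, against 5 to 10 with 1 array left out and 17 over every probe set of the list, a count added after seeing the data, and 5 on chip B, against 4 to 5. The replicate number as a block gave 7 member probe sets, 1136 on chip A and 2107 on chip B. Deviations of samples of the same number correlated at -0.07, 0.04 and -0.01 on chip A. No member was on chip B, so no count of members exists there.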
